A study of Mus musculus with 6 samples.

Results

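Nuclear receptors are transcription factors that bind DNA at short hormone response elements and change their activity when a small lipid-soluble ligand, such as a fatty acid, bile acid, oxysterol, retinoid, thyroid hormone or drug, fills their pocket. Coactivators and corepressors dock on the ligand-binding domain and carry the enzymes that open or close chromatin. In liver these receptors are known for setting lipid oxidation, bile acid production, drug clearance and hepatocyte identity. A fixed list of 38 such genes, 32 receptors and 6 coregulators, was read from a liver count table of 23412 genes. All 38 were found in it.

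The table holds 6 libraries of liver RNA from C57BL/6J mice, labelled as 8 weeks old and as fed a diet high in fat for 4 weeks. Both groups had this diet. In 3 libraries the mice had been injected under the skin with liraglutide, a GLP-1 receptor agonist, at 300 µg/kg over 3 days, and in the other 3 with phosphate-buffered saline (PBS). No group had a normal diet, and feeding was not matched between the groups in the labels. The comparison asks which of these genes differed after a short treatment. Libraries are named by group and column number, Lira161, Lira162 and Lira164 against PBS155, PBS157 and PBS158. Whether each library came from its own animal is not in the labels, so the p-values may reflect technical spread alone. In bulk tissue, fewer cells of a type and less RNA per cell cannot be told apart.

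Of the 38 genes, 37 had enough counts to be tested, and 3 of these rose under liraglutide. They were Hnf4a, the receptor of hepatocyte identity, Nr1h2, which encodes the oxysterol receptor LXR-beta, and Nr4a2, which encodes the immediate early receptor NURR1. None fell. The 3 calls are 8.11% of the tested members, against 8.77% of all 12626 tested genes (4.08% higher and 4.69% lower), so the share was near that of the table as a whole. A gene was called where the quasi-likelihood test of edgeR gave a Benjamini-Hochberg adjusted p, over all tested genes, below 0.05. The member that was not tested, Hnf4g, a close relative of Hnf4a, had between 3 and 17 counts in a library.

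The changes were small. The median log2 fold change of the 37 members, liraglutide over PBS, was 0.03, against 0.01 over all tested genes, and the median size of the change was 0.22 against 0.21. Of the 37 members, 25 had a log2 fold change below 0.3 in size, 11 lay from there to 1, and only Nr4a2 exceeded 1. Standard errors were between 0.08 and 1.23, with a median of 0.13. Positive values belonged to 20 members and negative values to 17. All 3 liraglutide libraries lay above all 3 PBS libraries for 9 members and below them for 3, together 32.4%, against 31.3% of all tested genes. At an unadjusted p below 0.05 there were 8 members (21.6%, against 25.6%).

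**Figure D1:**
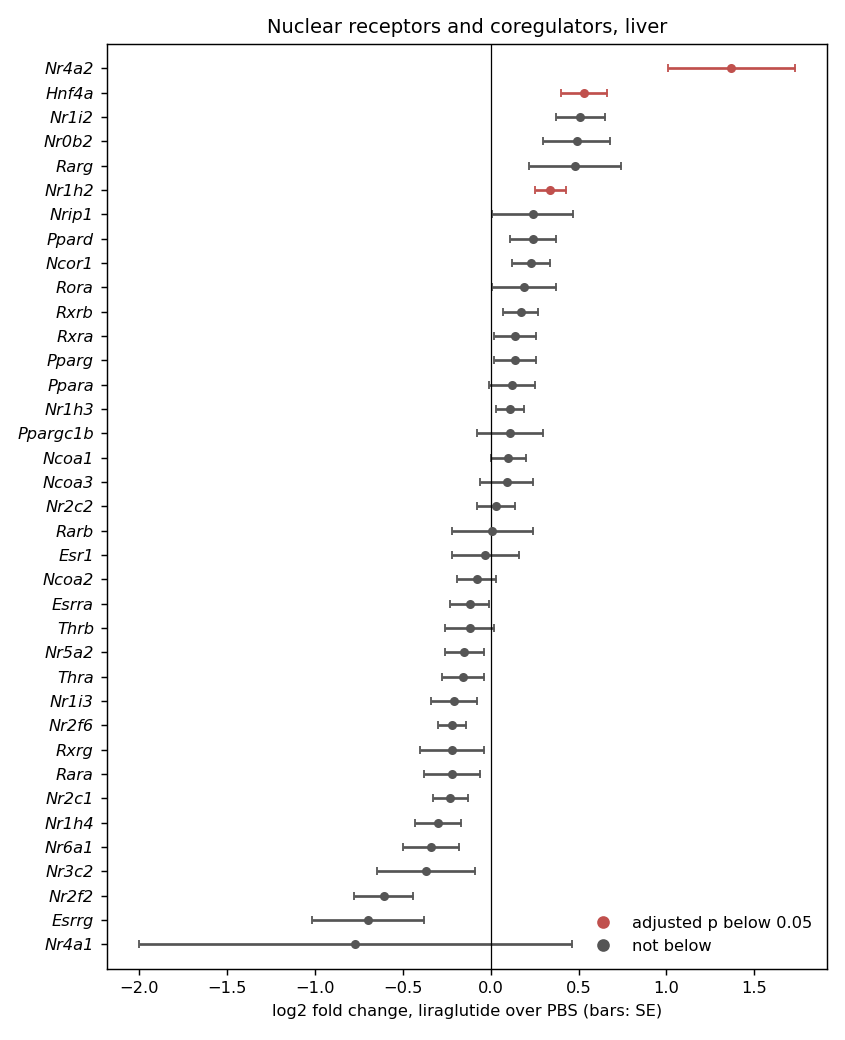
Log2 fold change of each tested member, liraglutide over PBS, with its standard error (3 libraries per group), sorted by value. Red points passed the adjusted threshold of 0.05. Most points lie within 0.3 of 0, and Nr4a1 has the widest error, 1.23.

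Whole-table values that touch these results are few. Total counts per library ran from 20888991 to 27007182. CPM are TMM-normalised counts on the per-million-reads scale. The hepatocyte markers together summed to between 80680 and 97790 CPM in the liraglutide libraries and between 93700 and 113400 in the PBS libraries. Most of each sum was Alb, at 41040 to 57170 CPM under liraglutide and 55680 to 76530 under PBS. Of the 10 markers, 4 had a higher mean under liraglutide, among them Ass1, at no more than 4 counts in any library. Of 9 tested hepatocyte markers, 0 passed the test (3 at an unadjusted p below 0.05). Endothelial markers summed to between 248.1 and 382.4 CPM under liraglutide and between 155.9 and 274.7 under PBS, and all 10 had a higher mean under liraglutide, with Stab1 and Clec4g called. Kupffer cell markers summed to 358.1, 221.5 and 341.5 CPM in Lira161, Lira162 and Lira164 and to 388.1, 161.9 and 99.1 in PBS155, PBS157 and PBS158. Library PBS155 thus stood above the other PBS libraries in both of these marker sets. For 11 stellate and fibroblast markers the sums were 332.8 to 385.5 CPM against 199.6 to 336.5. Cholangiocyte markers summed to less, 40.9 to 46.9 against 58.7 to 73.8 CPM, with 1 called lower, as did erythroid markers, 17.8 to 40.0 against 77.6 to 91.1 CPM, among which Hba-a1 and Hbb-b1 were at 0 in every library. The part of these marker levels in the results below was not tested.

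Levels between genes were compared per length, as CPM per kilobase of annotated exon, in the PBS libraries. Ppara, the fatty acid receptor PPAR-alpha, was highest at 159.7 ± 21.2 CPM per kilobase (SD, n = 3), followed by Hnf4a at 155.6 ± 17.7. The libraries of these leading genes overlapped, so their order is not resolved. Rxra, which encodes the retinoid X receptor that most of the lipid sensors need as a dimer partner, followed at 104.9 ± 4.44. Next were the bile acid receptor gene Nr1h4 (FXR) at 88.3 ± 13.9 and Nr1i3, which encodes the drug-sensing receptor CAR, at 72.1 ± 11.5, with overlapping libraries. Nr1h3 (LXR-alpha) and Nr1i2 (PXR) were at 41.2 ± 0.48 and 40.7 ± 6.28.

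The coregulators lay below the leading receptors but within the range of the other receptors. Ncor1, the corepressor that recruits histone deacetylase 3, led the coregulators at 11.7 ± 1.17 CPM per kilobase and ranked 12 of 38. Ncoa2, Ncoa3 and Ncoa1, the p160 coactivators, were at 4.21, 4.01 and 3.09. Ppargc1b, the PGC-1-beta gene, was at 2.48, and Nrip1, which encodes the corepressor RIP140, at 0.76. At the bottom were the receptor genes Rarb at 0.61, Nr4a2 at 0.17 and Hnf4g at 0.16 CPM per kilobase. Below rank 18 nearly every neighbour in the order overlapped with the next in its PBS libraries, except for Pparg over Ncoa1, Ncoa1 over Thra and Rarb over Nr4a2. Under liraglutide Hnf4a ranked 1 at 223.8 and Ppara 2 at 173.5 CPM per kilobase.

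**Figure D2:**
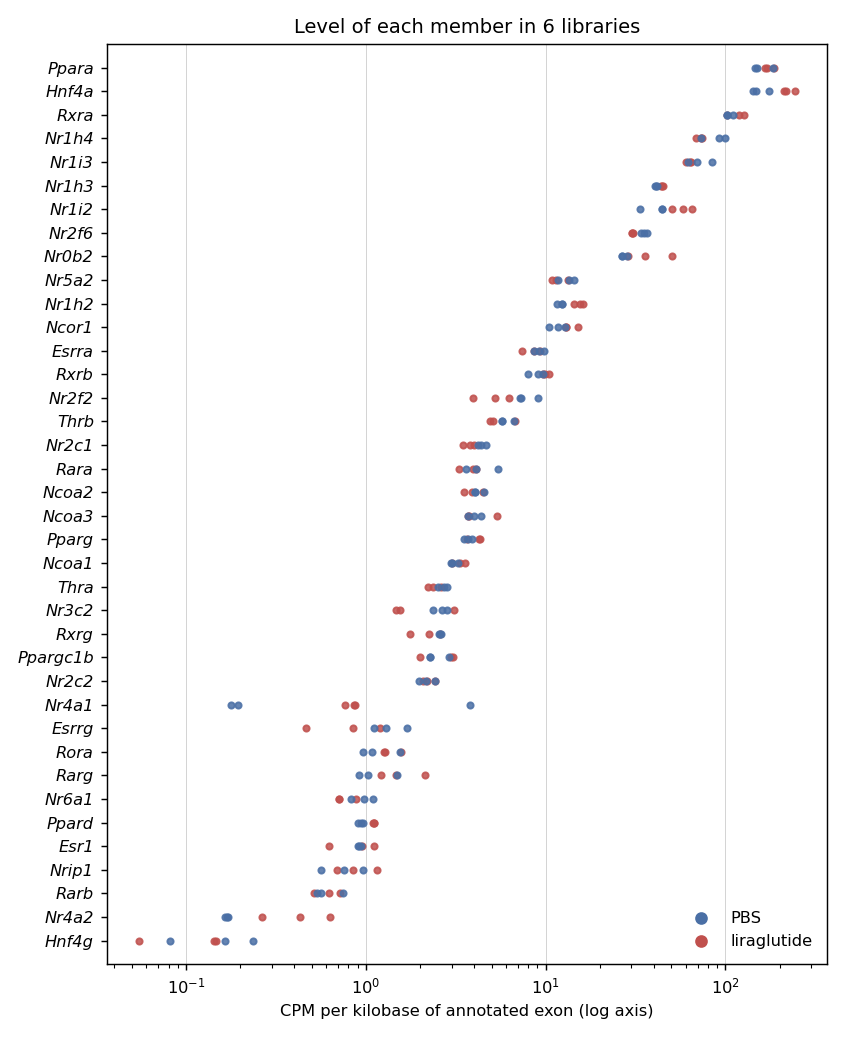
Level of each of the 38 members in each of 6 libraries, in CPM per kilobase of annotated exon on a log axis, ordered by the PBS mean. Ppara, Hnf4a and Rxra lead, and Nr4a1 has a single PBS library far to the right of the other two.

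Hnf4a encodes an orphan receptor that binds DNA as a homodimer and sustains many hepatocyte genes (chromosome 2, 163506808 to 163572910, GRCm38). Its normalised count was 1171, 1026 and 1046 CPM in Lira161, Lira162 and Lira164 and 718, 687 and 848 CPM in PBS155, PBS157 and PBS158. All liraglutide libraries were above all PBS libraries. The mean of 1081 ± 78.7 against 751 ± 85.6 CPM (SD, n = 3) gave a 1.44-fold higher level (log2 fold change 0.53 ± 0.13, SE, adjusted p = 0.0338). Hnf4a was called under all 8 alternative settings of scaling, filter and test, with adjusted p between 0.00112 and 0.0402. With Lira161, Lira162, PBS155 or PBS157 left out it was not called (adjusted p up to 0.122), at log2 fold changes of 0.46 to 0.62 over the 6 leave-one-out fits.

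Genes known as HNF4-alpha targets gave calls in both directions, 15.0% of those tested. For this list and those below, the share called among all tested genes was 8.77% (4.08% higher and 4.69% lower). Of 20 tested, Apoa4, an apolipoprotein gene, rose (3.47 ± 0.68) and both F7, coagulation factor VII (-0.42 ± 0.10), and Otc, ornithine transcarbamylase (-1.04 ± 0.20), fell. The median was -0.03, with 8 positive and 12 negative values. Apoc3, an apolipoprotein gene, had a log2 fold change of -0.04 (adjusted p = 0.869). DESeq2 called 5 of the targets higher and 6 lower. When each library was left out, first the liraglutide and then the PBS libraries by rising column number, edgeR called 0, 0, 2, 0, 1 and 0 higher and 0, 1, 3, 2, 1 and 0 lower.

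The other hepatocyte identity receptor, Nr5a2 (LRH-1), a regulator of bile acid genes, was at 70.1 ± 7.37 against 77.9 ± 8.11 CPM (-0.15 ± 0.11, adjusted p = 0.440).

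Among the lipid sensors Nr1h2 rose. LXR-beta is activated by oxysterols and, with LXR-alpha, raises genes of cholesterol export and fatty acid synthesis. Nr1h2 (chromosome 7, 44549616 to 44553951) was at 52.1, 53.9 and 47.9 CPM in Lira161, Lira162 and Lira164 and at 39.0, 41.5 and 41.2 CPM in PBS155, PBS157 and PBS158. The groups did not overlap, and the difference was 1.27-fold (0.34 ± 0.09, adjusted p = 0.0467). This call stood close to the threshold. It was lost without a low-count filter (adjusted p = 0.0570), without the 10 most abundant genes (0.0557) and on leaving out any library other than Lira164 (0.101 to 0.185).

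The more abundant Nr1h3 had narrow, separated groups but a small difference. It was at 111.5, 110.4 and 112.7 CPM in the liraglutide libraries and at 104.8, 103.3 and 102.4 CPM in the PBS libraries (0.11 ± 0.08, adjusted p = 0.454). Of 15 tested LXR targets, Scd1, the stearoyl-CoA desaturase gene (-4.34 ± 0.38), and Srebf1, the lipogenic factor gene (-1.42 ± 0.28), fell and none rose in edgeR, DESeq2 or limma-voom by adjusted p (2, 3 and 3 were higher at an unadjusted p below 0.05). The edgeR calls were 13.3% of the tested LXR targets, against 8.77% of all tested genes. DESeq2 called 4 lower, adding Abca1 and Fasn, and edgeR without a low-count filter called Abca1 and not Srebf1. The cholesterol exporter genes gave values in both directions: Abca1 was at 185.5 ± 32.4 against 258.8 ± 22.8 CPM (-0.48 ± 0.14, adjusted p = 0.0623) and Abcg5 at 103.5 ± 12.6 against 131.4 ± 8.88 (-0.34 ± 0.11, adjusted p = 0.0929), while Abcg1 was at 0.57 (adjusted p = 0.188). Of the 2 called, 1 was left without Lira161, Lira162, PBS155 or PBS158, and 3 were lower without Lira164 or PBS157. Mylip, the gene of a ligase that degrades the LDL receptor, was called higher without PBS155.

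The PPAR genes themselves did not pass the test. Ppara was at 649, 638 and 710 CPM under liraglutide and at 706, 576 and 556 CPM under PBS, with PBS155 close to the highest liraglutide library, so the groups overlapped (0.12 ± 0.13, adjusted p = 0.594). Ppard, the PPAR-delta gene, was at 8.34, 8.30 and 8.25 CPM under liraglutide against 7.04, 7.28 and 6.82 (0.24 ± 0.13, adjusted p = 0.281). Its libraries did not overlap. Pparg, the adipogenic PPAR gene, was at 0.14 ± 0.12 (adjusted p = 0.515).

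The targets of PPAR-alpha were the list with the most calls in 1 direction. Of 29 tested, 14 rose in edgeR, 18 with DESeq2 and 14 with limma-voom. None fell in edgeR, DESeq2 or limma-voom (0 lower also at an unadjusted p below 0.05). The median in edgeR was 0.51. The edgeR calls were led by Pex11a, a peroxisome division gene (1.00 ± 0.10), the hormone gene Fgf21 (3.10 ± 0.27), Acot1 (1.54 ± 0.18), Pdk4 (2.57 ± 0.34) and Plin2 (1.03 ± 0.18). With each library left out, in that sequence, 7, 6, 13, 7, 10 and 8 were called. Cofactor genes of the PPAR pathway gave values only: Ppargc1a, the PGC-1-alpha gene, was at 22.3, 30.2 and 11.8 CPM under liraglutide against 14.2, 13.6 and 14.6 (0.60, adjusted p = 0.287), and Lira164 was below every PBS library. Without Lira164 it was called higher. Lpin1, lipin 1, was at 469.7, 448.6 and 224.0 CPM against 39.1, 137.4 and 223.2 (1.52, adjusted p = 0.256).

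Nr1h4 and its effector Nr0b2 had log2 fold changes of opposite sign that did not pass the test. FXR senses bile acids and raises Nr0b2, whose product SHP lacks a DNA-binding domain and represses other receptors. Nr1h4 was at 158.6, 168.8 and 169.6 CPM under liraglutide and at 167.9, 212.4 and 230.0 CPM under PBS. Only PBS155 overlapped with the liraglutide libraries (-0.30 ± 0.13, adjusted p = 0.178), and without PBS155 Nr1h4 was called lower (-0.43, adjusted p = 0.0471). Nr0b2 was at 56.9, 40.6 and 32.5 CPM in Lira161, Lira162 and Lira164 against 30.0, 30.1 and 32.2 CPM under PBS. The PBS libraries were tight, and Lira164 lay just above them (0.49 ± 0.19, adjusted p = 0.142, and 0.65 with adjusted p = 0.0167 without Lira164). Without Lira161 the log2 fold change was 0.25.

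Of 16 tested FXR and SHP targets, 5 fell and 1 rose. Those that fell were Cyp7a1, the first enzyme of bile acid synthesis (-2.70 ± 0.34), the conjugation genes Slc27a5 (-0.67 ± 0.11) and Baat (-0.56 ± 0.12), the bile salt pump gene Abcb11 (-0.64 ± 0.14) and Kng1, kininogen (-0.49 ± 0.13). Abcb4, the phospholipid exporter gene, rose (0.75 ± 0.13). Cyp7a1 is a gene that SHP represses and Abcb11 a gene that FXR raises, and both were lower. Cyp8b1, a bile acid hydroxylase gene that SHP is also known to repress, was at 995.1 ± 268.0 against 680.3 ± 124.6 CPM (0.55 ± 0.21, adjusted p = 0.1465) and was called higher without Lira164. With each library left out, in that sequence, 3, 2, 4, 5, 3 and 2 fell and 1, 1, 3, 1, 1 and 0 rose.

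The drug-sensing receptors also gave values in opposite directions. Nr1i2 (PXR) was at 166.7, 148.4 and 128.4 CPM in Lira161, Lira162 and Lira164 and at 85.5, 113.7 and 112.7 CPM in PBS155, PBS157 and PBS158. The groups did not overlap, and the 1.42-fold difference missed the threshold narrowly (0.51 ± 0.14, adjusted p = 0.0553). It passed with library totals (0.0308), without a filter (0.0308), with a filter at a mean of 5 CPM (0.0496), with DESeq2 (0.0161) and without Lira164 (0.0280). Nr1i3 (CAR) was at 278.5, 265.7 and 282.1 CPM against 274.6, 305.8 and 373.7 CPM (-0.21 ± 0.13, adjusted p = 0.341). PBS155 lay within the liraglutide range.

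Of 17 tested CAR and PXR targets 2 rose and 3 fell. Por, the P450 reductase gene (0.74 ± 0.17), and Gadd45b (2.76 ± 0.60) rose, and the sulfotransferase gene Sult1d1 (-0.51 ± 0.12), the carboxylesterase gene Ces2a (-1.46 ± 0.29) and the glutathione transferase gene Gstm3 (-1.55 ± 0.39) fell. Cyp3a11, the textbook PXR target, was at 89.9, 222.7 and 381.3 CPM under liraglutide and at 414.2, 202.9 and 457.9 CPM under PBS, so the groups overlapped (-0.63, adjusted p = 0.570). Cyp2b10, the textbook CAR target, was at or near 0 in every library, at most 0.17 CPM, and was not tested. Leaving out libraries in the same order gave 1, 0, 1, 0, 1 and 1 higher and 0, 1, 3, 1, 1 and 0 lower. Ces2a, Gstm3 and Sult1d1 have close relatives that could share reads.

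The RXR genes, whose products serve PPARs, LXRs, FXR, CAR, PXR, thyroid and retinoic acid receptors as partners, did not pass the test. Rxra was at 652.9, 553.6 and 688.5 CPM against 559.1, 600.9 and 558.8 (0.14 ± 0.12, adjusted p = 0.496). Lira162 was the lowest of all 6 libraries. Rxrb was at 39.8 ± 1.37 against 35.3 ± 3.34 CPM with groups that did not overlap (0.17 ± 0.10, adjusted p = 0.303), and Rxrg at 5.04 ± 0.93 against 5.91 ± 0.08 CPM (-0.22 ± 0.18).

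Retinoic acid receptor genes gave no call, while genes of retinoid metabolism changed in both directions. Rara was at 16.5 ± 1.94 against 19.2 ± 4.13 CPM (-0.22 ± 0.16), Rarb at 3.26 ± 0.54 against 3.24 ± 0.60 and Rarg at 6.83 ± 1.98 against 4.88 ± 1.32 (0.48 ± 0.26, adjusted p = 0.275). Of 7 tested RAR and RXR targets 1 rose and 3 fell. Cyp26b1, a retinoic acid hydroxylase gene, was at 16.9, 23.5 and 18.6 CPM under liraglutide and at 3.48, 2.95 and 3.41 CPM under PBS (2.58 ± 0.16, adjusted p = 0.000313). Its groups were far apart. Its relative Cyp26a1, the usual retinoic acid target in liver, was at 0.24, 0.54 and 0.62 CPM against 1.58, 1.16 and 1.63 CPM (-1.60 ± 0.38, adjusted p = 0.0319), the reverse direction.

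Dhrs3, a retinal reductase gene (-0.58 ± 0.14), also fell. Cyp26b1 was called with any 1 library left out, whereas Cyp26a1 and Dhrs3 were called only without Lira164.

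Among 15 tested genes listed for ligand supply, 4 fell and none rose. At an unadjusted p below 0.05, 1 was higher, and 2 with DESeq2. By adjusted p, 0 were higher with DESeq2 or limma-voom. The 4 that fell were the retinoid metabolism genes Rdh10 (-0.56 ± 0.10), Rdh11 (-1.02 ± 0.23) and Aldh1a1 (808.5 ± 168.4 against 1625 ± 354.6 CPM, -1.01 ± 0.19) and the vitamin D 25-hydroxylase gene Cyp2r1 (-0.92 ± 0.18). Leaving out libraries in the same order gave 1, 0, 5, 3, 5 and 1 lower.

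The thyroid hormone receptors were also without a call. Thrb, the main liver isoform, was at 36.1, 37.6 and 49.7 CPM against 49.5, 42.1 and 42.6 (-0.12 ± 0.14, adjusted p = 0.618), where Lira164 was the highest library and Lira161 the lowest. Thra was at 11.1 ± 0.87 against 12.4 ± 0.69 CPM (-0.16 ± 0.12). Thra shares 263 bp of exon with Nr1d1 on the opposite strand, so its counts may hold reads of that gene. Of 11 tested thyroid hormone targets, the mitochondrial glycerol-3-phosphate dehydrogenase gene Gpd2 (0.76 ± 0.10) and Me1 (0.55 ± 0.10) rose and Thrsp (-2.39 ± 0.44) fell. With each library left out, 2, 2, 3, 2, 2 and 2 were higher and 0, 1, 1, 0, 0 and 0 lower.

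**Figure D3:**
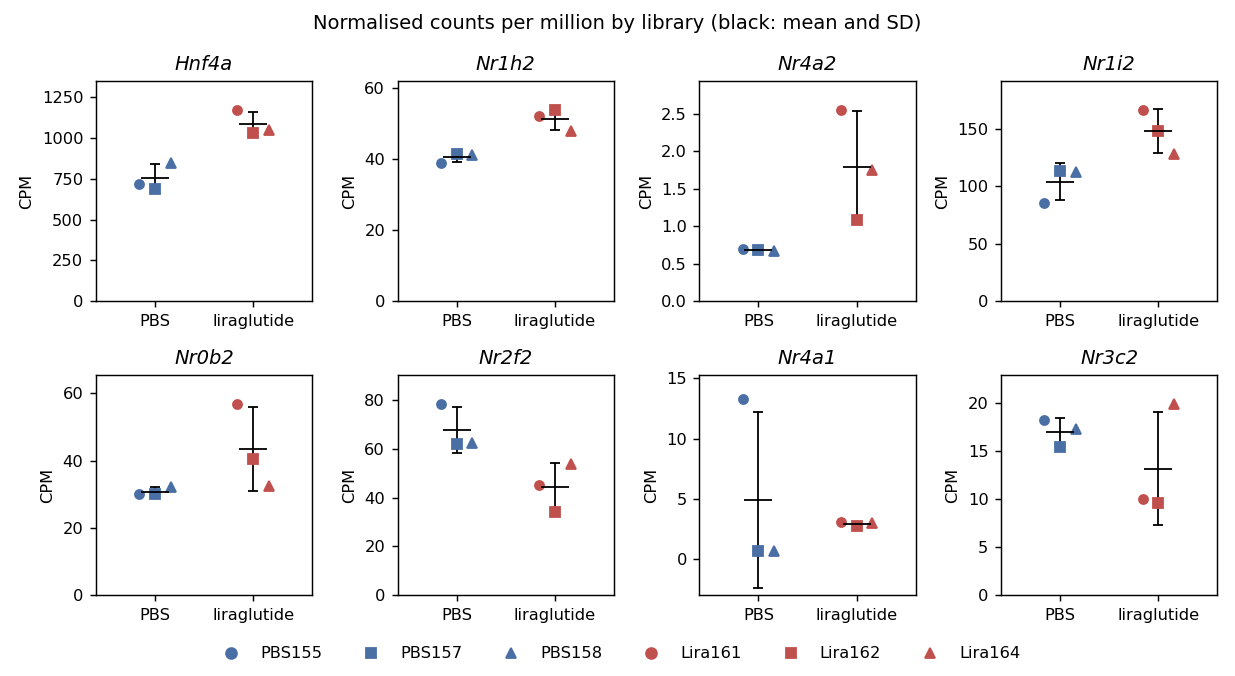
Normalised CPM of 8 members in each PBS and liraglutide library, with the mean and SD of 3 in black. Hnf4a, Nr1h2, Nr4a2, Nr1i2 and Nr0b2 lie higher in all liraglutide libraries, Nr2f2 lower, while Nr4a1 is set apart by PBS155 at 13.3 CPM and Nr3c2 by Lira164 at 19.9 CPM.

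The NR4A genes are immediate early genes whose products act without a known hormone and whose transcription follows cAMP, calcium and stress signals. Their promoters are shown because both hold several copies of CGTCA, the core of a cAMP response element. Each sequence is the 250 bases before the RefSeq start (GRCm38.p6), read 5′ to 3′ on the strand of the gene, with the core in capitals on either strand (CGTCA or TGACG). Nr4a2 is at chr2:57124004-57124253 on the minus strand and Nr4a1 at chr15:101266596-101266845 on the plus strand.
Nr4a2: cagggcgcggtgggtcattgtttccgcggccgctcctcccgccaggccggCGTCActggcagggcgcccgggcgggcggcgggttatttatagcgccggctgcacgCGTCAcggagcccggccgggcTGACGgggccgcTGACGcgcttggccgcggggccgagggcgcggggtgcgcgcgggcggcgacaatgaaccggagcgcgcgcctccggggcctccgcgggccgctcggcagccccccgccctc
Nr4a1: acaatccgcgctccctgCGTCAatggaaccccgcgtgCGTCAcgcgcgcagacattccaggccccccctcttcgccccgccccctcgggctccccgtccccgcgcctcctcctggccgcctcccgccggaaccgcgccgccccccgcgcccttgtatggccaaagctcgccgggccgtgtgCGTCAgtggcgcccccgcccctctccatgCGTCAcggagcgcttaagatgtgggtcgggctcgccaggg

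Each of these windows held 4 copies of the core, starting 200, 144, 123 and 111 bases before the start in Nr4a2 and 233, 213, 69 and 40 bases before it in Nr4a1. Of 32817 mouse windows of this length, 17.8% held at least 1 copy and 0.137% held 4 or more. The full palindrome TGACGTCA was in neither (1.55% of all windows). Promoters of 33 members were in the RefSeq table, with 53 windows in all, and 9 of these windows held at least 1 copy. A match in letters describes the sequence only.

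Nr4a2 (chromosome 2, 57106830 to 57124003) had 53, 28 and 42 counts in Lira161, Lira162 and Lira164 and 19, 16 and 14 counts in PBS155, PBS157 and PBS158. As CPM these were 2.56, 1.08 and 1.75 against 0.70, 0.69 and 0.67. The PBS libraries were nearly equal, and each liraglutide library was above them, for a 2.59-fold higher level (1.37 ± 0.36, adjusted p = 0.0490). The call rested on few counts. It was kept by 6 of the 7 alternative settings in which the gene was tested but lost with limma-voom (adjusted p = 0.0823), and it was kept without Lira162 (0.0402) and lost without any other library (0.0674 to 0.155).

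Nr4a1 (NUR77; chromosome 15, 101254269 to 101274795) had 63, 70 and 72 counts in the liraglutide libraries and 363, 16 and 13 in PBS155, PBS157 and PBS158. In CPM these were 3.04, 2.70 and 3.00 against 13.3, 0.69 and 0.62. The liraglutide libraries were alike and stood above PBS157 and PBS158 but below PBS155. With all libraries the log2 fold change was -0.77 ± 1.23 (adjusted p = 0.743). Without PBS155 it was 2.13 (adjusted p = 0.00815), and with limma-voom 0.52 (adjusted p = 0.762). The direction for Nr4a1 thus depended on 1 PBS library. Nr4a3, the other NR4A gene, was at most 0.05 CPM in any library.

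Genes of the immediate early response, as a list, were higher where they changed. Of 11 tested, Junb (0.99 ± 0.17), Ier2 (0.68 ± 0.14), Ier3 (1.51 ± 0.36), Egr1 (2.12 ± 0.44) and Zfp36 (0.53 ± 0.14) rose in edgeR. DESeq2 called 6 higher and limma-voom 7, Jun among the latter. None fell in edgeR, DESeq2 or limma-voom (0 lower at an unadjusted p below 0.05). In edgeR all 11 values were positive, with a median of 0.99. Most tested genes of that list, among them the called Junb, Egr1 and Ier2, were higher in PBS155 than in the remaining PBS libraries. The called Ier3 and Zfp36 were among those that were not. Jun was at 35.5 CPM in PBS155 and at 10.7 and 18.8 in PBS157 and PBS158, and Btg2 at 17.4 against 7.84 and 6.82, while Zfp36 was lowest in PBS155, at 66.2 against 84.6 and 94.6 CPM. Leaving out libraries in the same order gave 1, 2, 4, 5, 1 and 1 higher genes.

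Among the orphan repressors most values were negative. Nr2f2 encodes COUP-TFII, known from veins, stromal cells and hepatocytes (chromosome 7, 70351944 to 70366735). It was at 45.1, 34.0 and 53.8 CPM in Lira161, Lira162 and Lira164 and at 78.6, 62.0 and 62.5 CPM in PBS155, PBS157 and PBS158. No liraglutide library reached a PBS library (-0.61 ± 0.17, adjusted p = 0.0634). DESeq2 called it lower (adjusted p = 0.0107), as did edgeR without Lira164 (-0.79, adjusted p = 0.0102).

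Nr2f6, the gene of the related repressor EAR2, was at 89.9, 89.6 and 91.2 CPM against 101.0, 104.7 and 109.6 CPM. Its groups were tight and did not overlap (-0.22 ± 0.08, adjusted p = 0.142). Nr2c1 (TR2) was at 17.3 ± 1.19 against 20.3 ± 1.06 CPM, also without overlap (-0.23 ± 0.10, adjusted p = 0.208). Its partner Nr2c2 (TR4) was at 33.4 ± 2.498 against 32.8 ± 3.26 CPM (0.03 ± 0.11), and Nr6a1, the germ cell nuclear factor gene, at 8.31 ± 1.11 against 10.5 ± 1.47 CPM (-0.34 ± 0.16, adjusted p = 0.212).

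Some of these genes share exon with a neighbour on the opposite strand, 54.4% of exon bases for Nr2f6 (with Ocel1), 74.9% for Nr1i3 (with Tomm40l), 34.1% for Rarb (with Top2b) and 30.7% for Nr2c2 (with Mrps25). Their values are uncertain to that extent, since no source used here gives the strand setting of the counting. Ocel1, Tomm40l and Mrps25 were themselves at 7.26, 10.8 and 11.3 CPM under PBS, while Top2b was at 66.1 CPM, far above Rarb.

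Neither steroid receptor gene on the list was called. Nr3c2, the mineralocorticoid receptor gene, was at 9.98, 9.57 and 19.9 CPM in Lira161, Lira162 and Lira164 and at 18.2, 15.4 and 17.3 CPM under PBS. Lira164 was the highest of all and the other liraglutide libraries the lowest (-0.37 ± 0.28, adjusted p = 0.462). Without Lira164 the log2 fold change was -0.80 (adjusted p = 0.00558). Esr1, estrogen receptor alpha, was at 8.49, 13.0 and 15.2 CPM against 12.5, 12.8 and 12.3 (-0.03 ± 0.19, adjusted p = 0.937), and the wide spread lay within the liraglutide group.

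Estrogen-related and ROR receptors control mitochondrial genes and the clock. Esrrg was at 2.89, 5.29 and 7.41 CPM under liraglutide against 6.93, 8.05 and 10.6 CPM (-0.70 ± 0.32, adjusted p = 0.216). Lira164 alone overlapped with PBS. Esrra was at 37.1 ± 4.39 against 40.3 ± 2.503 CPM (-0.12 ± 0.11), and Rora at 17.9 ± 2.35 against 15.6 ± 3.99 (0.19 ± 0.18). Of 17 tested targets of the estrogen-related receptors and PGC-1, edgeR and limma-voom called none (4 at an unadjusted p below 0.05) and DESeq2 called 1 lower; 1 was called lower without PBS155. The 2 with the smallest p were the succinate dehydrogenase genes Sdha (-0.35 ± 0.11, adjusted p = 0.0832) and Sdhb (-0.31 ± 0.10, adjusted p = 0.0915). Of 11 tested ROR and REV-ERB targets, Cry1, a clock repressor gene, fell (-1.16 ± 0.20) and E2f8 rose (0.88 ± 0.20). These calls were 18.2% of those tested, against 8.77% of all tested genes. Cry1 fell in every fit with a library left out, and 0, 0, 2, 0, 1 and 0 were higher in the same order.

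No coregulator on the list was called. In edgeR, DESeq2 and limma-voom, 0 of 6 members passed, and 0 had an unadjusted p below 0.05 in edgeR. With 8.77% of all tested genes called, 0 of 6 is near the background and no result about the coregulators. Ncor1 was at 165.3, 166.1 and 193.7 CPM under liraglutide and at 164.3, 149.3 and 134.4 CPM under PBS. Its groups were separated, by a narrow gap between PBS155 and Lira161 (0.23 ± 0.11, adjusted p = 0.244). Nrip1 was at 7.96, 9.77 and 13.2 CPM against 11.0, 8.69 and 6.48 (0.24 ± 0.23, adjusted p = 0.571).

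Ncoa1, Ncoa2 and Ncoa3 had log2 fold changes of 0.10 ± 0.10, -0.08 ± 0.11 and 0.09 ± 0.15, and Ppargc1b 0.11 ± 0.19. Of these, Ncoa3 had its highest library in Lira164, at 42.4 CPM against 29.2 to 34.4 CPM in the other 5. Ncoa3 turned to -0.11 and Ppargc1b to -0.01 without Lira164.

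Receptors and coregulators outside the list of 38 also gave no call in edgeR. Over all tested genes, edgeR called 8.77%, DESeq2 12.6% and limma-voom 9%, and 25.6% had an unadjusted p below 0.05 in edgeR. Whether these lists differ from those shares was not tested. Of 7 other tested receptor genes, edgeR called none (2 at an unadjusted p below 0.05), and DESeq2 and limma-voom each called 1 lower. Nr3c1, which encodes the glucocorticoid receptor, had means of 94.6 ± 19.96 against 124.3 ± 16.8 CPM (-0.39 ± 0.16, adjusted p = 0.159). In edgeR 1 was lower without Lira162 and 2, Nr3c1 among them, without Lira164.

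Of 29 other tested coregulator genes, edgeR, DESeq2 and limma-voom called none (5 at an unadjusted p below 0.05 in edgeR). Without Lira164, Ppargc1a and Ncoa5 were higher and Prox1 lower. In the edgeR fit with all libraries, 8.77% of all tested genes were called and 25.6% had an unadjusted p below 0.05. Hdac3, the deacetylase that works with NCoR1, had the smallest p (28.7 ± 3.30 against 36.3 ± 3.12 CPM, -0.34 ± 0.11, adjusted p = 0.0986). It was followed by the coactivator gene Ncoa5 (0.46 ± 0.16, adjusted p = 0.115).

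The promoter of Nr1h2, the called receptor gene with the smallest error, is shown for comparison with those of the NR4A genes. It is chr7:44553966-44554215 on the minus strand, the 250 bases before the RefSeq start, with CCGGAAG (an ETS factor core, either strand) in capitals.
Nr1h2: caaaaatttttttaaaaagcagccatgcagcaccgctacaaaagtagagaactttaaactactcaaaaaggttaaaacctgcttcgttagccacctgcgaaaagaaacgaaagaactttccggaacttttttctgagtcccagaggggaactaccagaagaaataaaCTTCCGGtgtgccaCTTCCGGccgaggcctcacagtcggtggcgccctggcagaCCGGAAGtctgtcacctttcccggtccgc

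It held 3 copies of CCGGAAG, which 6.91% of all windows held at least once and 0.101% at least 3 times, and no copy of CGTCA. The nuclear receptor core AGGTCA was in 9 of the 53 member windows and in 14.0% of all windows, and its direct repeat with a spacer of 1 base, to which HNF4-alpha and PPAR-RXR bind, was in none of the 53 member windows (0.0335% of all windows). TATAAA was in 6 of the 53 (12.4% of all windows). The motifs and the 3 promoters shown were chosen after values and sequences had been seen, and a missing match says only that the letters are not in the window.

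Library Lira164 was the highest of the 3 liraglutide libraries for 25 of 37 members (67.6%), against 35.1% of all tested genes. In the PBS group, PBS155 was the highest for 20 members (54.1%), against 36.6% of all tested genes. These shares describe the libraries and were not tested, since members of a list are not independent. The member calls changed with each library left out. Without Lira164, Nr0b2, Nr1h2, Nr1i2 and Hnf4a were higher and Nr2f2 and Nr3c2 lower, where 11.7% of all tested genes were called. Without PBS155, Nr4a1 was higher and Nr1h4 lower (7.56% of tested genes). Without Lira161 or PBS157 no member was called, at 3.62% and 5.12% of tested genes, without Lira162 only Nr4a2 (3.09%) and without PBS158 only Hnf4a (3.22%).

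**Figure D4:**
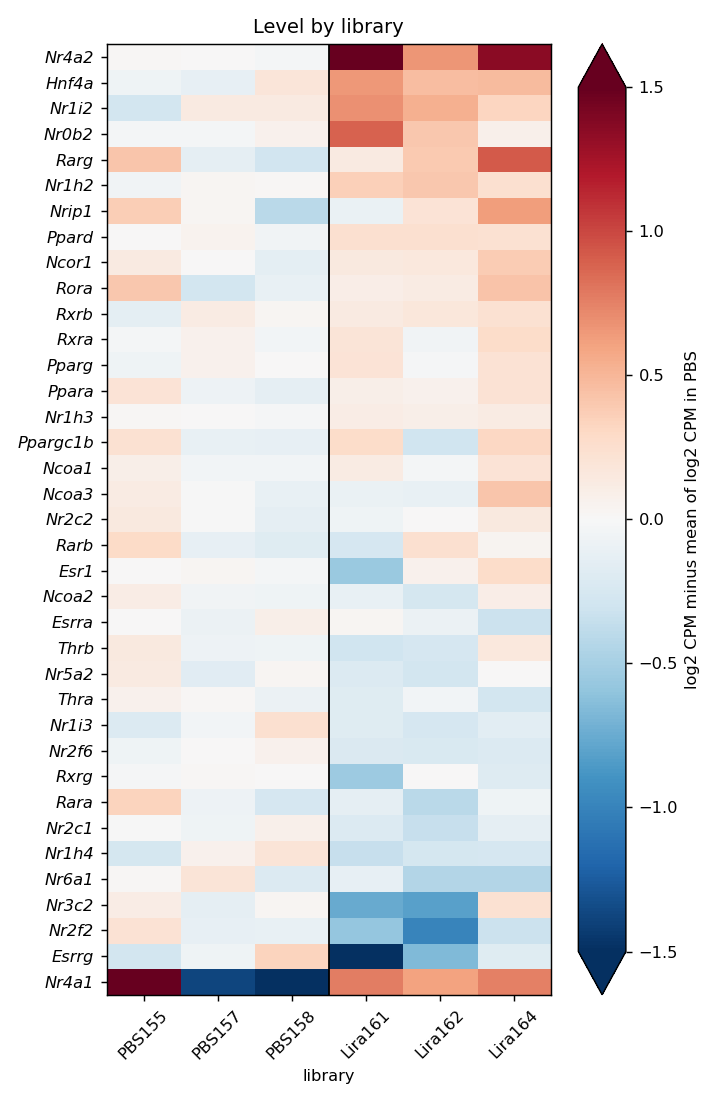
Log2 CPM of the 37 tested members in each library minus the mean log2 CPM of the PBS libraries, sorted by fold change (colour scale from -1.5 to 1.5, beyond which it is saturated). Hnf4a and Nr1i2 are red in all liraglutide columns, Nr2f2 blue, and Nr4a1 stands out in PBS155.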

How the data were processed

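The values are raw counts, in 1 table by gene symbol, as the authors deposited them. Per the submitters' processing notes, STAR and the build mm10 were used. Counting tool, annotation and strand setting: not given in the sources used here. Columns carry a group and a number that matches no triplicate number, so they were assigned to groups only. No per-sample column was left out.

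Counts were filtered with filterByExpr (12626 of 23412 genes kept), scaled by TMM and fitted with group as the only term in edgeR 4.0.16 (R 4.3.3; estimateDisp, robust glmQLFit, glmQLFTest), with two-sided p-values adjusted by Benjamini-Hochberg over all tested genes. Standard errors were taken as the absolute log2 fold change over the root of the F statistic. CPM use the TMM factors. The common biological coefficient of variation was 15.7%. Gene positions and exon lengths are from GENCODE M21 (GRCm38) and promoters from RefSeq (GRCm38.p6). Depth limits precision at low counts. The fit was also run on simulated counts with the same dispersion for every gene. That run does not bear on libraries that stand apart or on calls near the threshold.

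The members and lists were chosen with earlier results of these data known. All members are named, with full values for those past the threshold. Slc51a, Slc51b and Emr1 are the table's symbols for 3 listed genes. Alb and Ass1 were picked for naming after their values were seen. Listed genes were named if called, at most 5 per list, otherwise up to 2 as values. Textbook targets and cofactors given as values beyond that (Apoc3, Abca1, Abcg5, Abcg1, Ppargc1a, Lpin1, Cyp3a11, Cyp2b10, Nr4a3, Jun and Btg2), Cyp8b1, Fasn, Mylip, Prox1, Stab1 and Clec4g, Kng1 as the sixth call of its list, and per-library values of uncalled members were chosen after their values were seen, as were the promoter motifs. Alternatives were 3 other scalings, 2 other filters, DESeq2 1.42.0, limma-voom (limma 3.58.1), removal of abundant genes, and each library left out. Some listed genes and 1 motif are counted or searched but not reported here. Figures used matplotlib 3.10.9.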

Additional observations from a re-analysis of the deposited data

How the results depend on the processing

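No paired analysis was possible because the columns of the count table carry no triplicate number. The 3 members called higher numbered 2 to 4 under the 8 alternative settings of scaling, filter, test and abundant genes, and 0 to 4 with a library left out. No member was called lower except 1 with DESeq2 (Nr2f2), and 0 to 2 with a library left out. Directions turned for Rarb (-0.0037 without the 10 most abundant genes, -0.12 to 0.16 with a library left out), Esr1 (0.023 with library totals, -0.22 to 0.17 with a library left out), Nr4a1 (0.52 with limma-voom, -1.28 to 2.13), Nr2c2 (-0.039 to 0.095), Ncoa3 (-0.11 to 0.18) and Ppargc1b (-0.0091 to 0.28). None of these 6 was called in the fit with all libraries.

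DESeq2 called 4 LXR targets and 3 thyroid hormone targets lower (2 and 1 in edgeR), and 5 HNF4-alpha targets higher and 6 lower (1 and 2). DESeq2 and limma-voom called 2 ROR and REV-ERB targets higher (1 in edgeR). With a library left out, counts higher were 6 to 13 for PPAR-alpha targets, 0 to 1 for LXR, 0 to 3 for FXR, 0 to 1 for CAR and PXR, 0 to 2 for HNF4-alpha, 0 to 2 for ROR and REV-ERB targets, 1 to 5 for immediate early genes and 0 to 2 for other coregulators. Counts lower were 1 to 3 for LXR, 2 to 5 for FXR, 0 to 3 for CAR and PXR, 0 to 1 for thyroid hormone, 1 to 3 for retinoid, 0 to 3 for HNF4-alpha and 0 to 1 for estrogen-related targets, 0 to 5 for ligand supply, 0 to 2 for other receptors and 0 to 1 for other coregulators. These fits have fewer samples. Other causes were not tested. A filter at a mean CPM of 5 left Nr4a1, Nr4a2 and Rarb untested. DESeq2 gave Nr4a1 no adjusted p.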
